A study of Mus musculus with 15 samples.

Results

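The mitochondrial genome of the mouse encodes a small set of proteins of the respiratory chain together with the RNAs needed to make them. Of 10 mitochondrially encoded RNAs selected by symbol, 8 were present among the 15258 genes of each file and are described here; mt-Co3 and mt-Atp6 were not analysed here. The 8 comprised both ribosomal RNAs (rRNAs), mt-Rnr1 and mt-Rnr2, and 6 messenger RNAs (mRNAs), mt-Nd1, mt-Nd2, mt-Co1, mt-Nd4, mt-Nd5 and mt-Cytb. They were chosen by symbol, with earlier results of these data known, and all 8 passed the filter on low values. Left ventricular tissue came from male C57BL/6NRj mice and was profiled by BRB-seq, a pooled and barcoded assay that reads the 3′ ends of polyadenylated RNA. The groups, of 5 libraries each, were transverse aortic constriction with neuregulin-1 (TAC NRG), transverse aortic constriction with saline (TAC saline) and sham surgery with saline (sham saline). The constriction narrows the aorta, so that the ventricle pumps against a higher pressure, and NRG1, a growth factor that acts on ERBB receptors, or saline was given from a minipump. The mice of all 3 groups carried a pump, and a sham group with NRG1 is not part of the data described. Age, dose and time after surgery are not given in the labels, and neither is whether each library came from its own mouse, so p-values measure the spread between libraries, which may be partly technical.

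The circular genome of the mitochondrion is transcribed into long precursors that span many genes. Enzymes cut out the tRNAs that lie between most of these genes, which frees the rRNAs and mRNAs, and nearly all mRNAs then receive a poly(A) tail while the rRNAs carry only short runs of A. The rRNA of mt-Rnr1 is part of the small subunit and that of mt-Rnr2 part of the large subunit of the mitochondrial ribosome. The mt-Nd genes encode core membrane subunits of complex I, mt-Cytb the only subunit of complex III made in the mitochondrion, and mt-Co1 the catalytic core of complex IV. Cardiac muscle is rich in mitochondria, and these RNAs are abundant in it.

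The 3′ ends are shown because the assay reads them. They are the last 40 bases of each transcript from GENCODE on GRCm38, all on the plus strand of chromosome MT and in genome order, with the letters of the stop codon in capitals.
mt-Rnr1: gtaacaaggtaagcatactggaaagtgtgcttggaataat
mt-Rnr2: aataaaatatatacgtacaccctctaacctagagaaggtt
mt-Nd1: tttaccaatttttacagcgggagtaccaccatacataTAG
mt-Nd2: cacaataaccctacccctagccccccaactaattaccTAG
mt-Co1: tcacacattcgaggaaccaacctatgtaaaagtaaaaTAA
mt-Nd4: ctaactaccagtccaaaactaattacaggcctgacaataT
mt-Nd5: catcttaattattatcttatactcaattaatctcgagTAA
mt-Cytb: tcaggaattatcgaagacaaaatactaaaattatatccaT
The annotated reading frames of mt-Nd4 and mt-Cytb end on 1 base past the last full codon, a T, and the tail added after transcription completes their stop codon. The other 4 mRNAs end on a full stop codon, and the rRNAs have none.

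Runs of A within a transcript are shown because a primer that binds A tails can also bind them. A search of each transcript for runs of 6 or more A on the plus strand found 4 in mt-Rnr2, 3 in mt-Nd2, 2 each in mt-Nd4 and mt-Nd5, 1 each in mt-Nd1 and mt-Co1, and 0 in mt-Rnr1 and mt-Cytb. The longest run held 8 bases, in mt-Nd2, and the longest in mt-Rnr2, mt-Co1, mt-Nd4 and mt-Nd5 held 7. The 4 stretches of mt-Rnr2, the member with the most runs, are given in order from the 5′ end. Each has 10 bases on either side of the run, which is in capitals.
mt-Rnr2 run 1: ctggttacccAAAAAAtgaatttaag
mt-Rnr2 run 2: taaacttgctAAAAAAAcaacaaaatc
mt-Rnr2 run 3: tctggaacggAAAAAAcctttaatag
mt-Rnr2 run 4: ctcggagaatAAAAAAtcctccgaat
They begin at bases 361, 395, 463 and 1177 of the 1582 bases of this rRNA. Whether reads began at these runs was not tested, since the files hold 1 value per gene.

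Library totals were 2.02 to 5.62 M reads. The member with the fewest reads in any library was mt-Nd5, with 4301 reads in TAC NRG 4, and the widest 95% exact binomial interval of a share, also there, reached 3.00% of the share to either side. Such intervals cover counting error only. Libraries of the same group differed by more than sampling noise, and none was a copy of another. All 8 cardiomyocyte markers were present in each group, and their summed level, in counts per M reads on the authors' scale (CPM), was 59441 to 72789 in TAC NRG, 58101 to 70608 in TAC saline and 65826 to 71611 in sham saline. Fibroblast markers summed to 1796 to 3331, 1366 to 2610 and 971 to 1103 CPM in the same groups. The cardiomyocyte sum joins markers that moved in opposite directions. In TAC saline against sham saline 4 of 8 fell and Actc1 rose, where 4.24% of all genes fell and 6.47% rose. In TAC NRG against sham saline 5 of 8 fell and Actc1 rose, where 7.39% of all genes fell and 8.74% rose. Without TAC NRG 4 and 5 again 5 of 8 fell and Actc1 rose, where 5.28% fell and 7.07% rose. In bulk tissue, fewer cells of a type and less RNA per cell cannot be told apart, and the part of tissue make-up in the values below was not tested.

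Libraries TAC NRG 4 and 5 stood apart from the other 13 in both rRNAs. The 2 rRNAs together took 2.12% and 1.83% of reads in these libraries, against 5.43% to 6.73% in TAC NRG 1 to 3, 6.02% to 8.17% in TAC saline and 7.10% to 8.51% in sham saline. The 6 mRNAs together took 22.1% and 21.9% of reads in TAC NRG 4 and 5, which lay inside the range of 19.0% to 22.3% of TAC NRG 1 to 3. Several measures outside the mitochondrial genome moved with the same 2 libraries. They were the shallowest, with 2.02 and 2.13 M reads. Malat1, a long noncoding RNA of the nucleus, stood at 122.8 and 99.7 CPM there and at 220.4 to 441.8 in the other 13. Neat1, another such RNA, did not move with them and stood at 322.0 and 315.8 CPM in TAC NRG 4 and 5. It stood at 312.5 to 475.0 in TAC NRG 1 to 3, 229.8 to 279.6 in TAC saline and 236.5 to 332.5 in sham saline. In TAC NRG 4 and 5 the 25% of genes with the longest transcripts lay below the 25% with the shortest. The differences of median log2 deviation were -0.20 and -0.22 there, against -0.04 to 0.21 in the other 13. Haemoglobin transcripts took 0.366% and 0.350% of reads there. They took 0.189% to 0.222% in TAC NRG 1 to 3, 0.107% to 0.161% in TAC saline and 0.0888% to 0.221% in sham saline. The part of these measures in the low rRNA values was not tested. The fold changes, ratios and counts of calls with TAC NRG are therefore given with and without these 2 libraries.

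**Figure D1:**
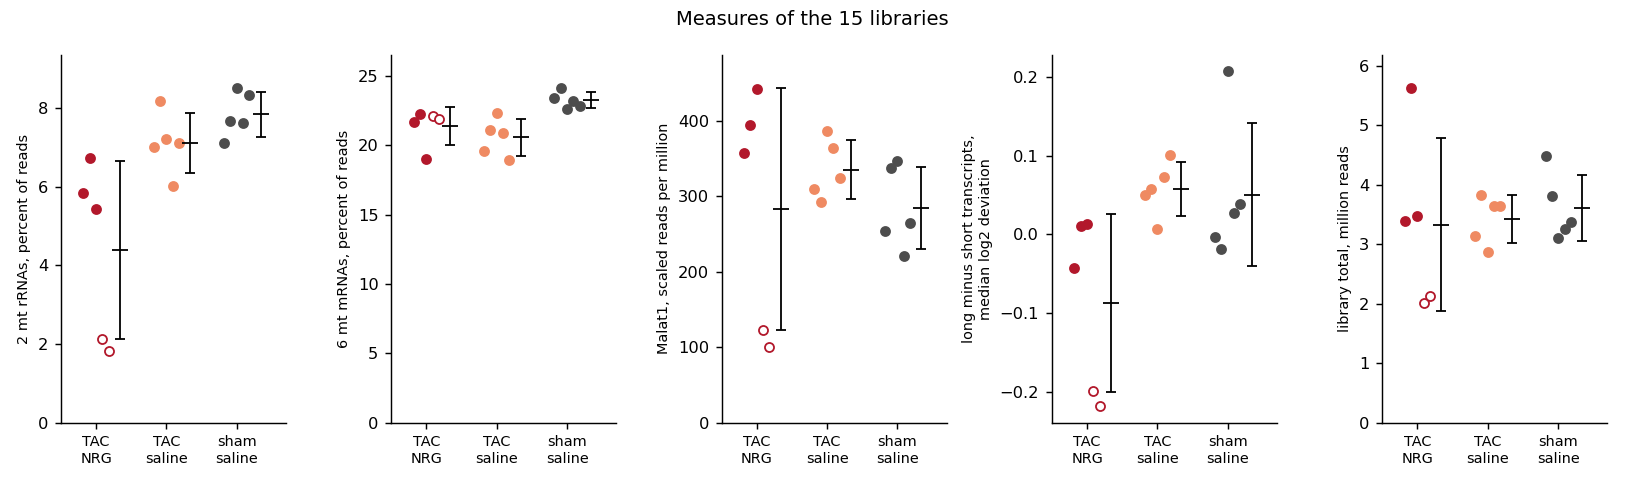
Each panel plots 1 measure in the 15 libraries by group: the summed percent of reads of the 2 rRNAs, that of the 6 mRNAs, Malat1 in CPM, the difference of median log2 deviation between genes with long and short transcripts, and the library total in M reads. Open circles are TAC NRG 4 and 5, and the bars are the mean and SD of 5 libraries; the open circles lie lowest in every panel but that of the mRNAs.

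In sham saline the order of the members by level per length, in percent of library reads per kilobase of transcript, put mt-Nd1 first at 8.58 ± 0.70 and mt-Nd2 next at 5.15 ± 0.19 (SD, n = 5). Then came mt-Rnr2 at 4.19 ± 0.34 and mt-Cytb at 4.17 ± 0.18, which lay within each other's spread. They were followed by mt-Nd4 at 3.07 ± 0.14 and mt-Rnr1 at 1.27 ± 0.12. The lowest were mt-Co1 at 0.222 ± 0.026 and mt-Nd5 at 0.189 ± 0.024, whose libraries overlapped. In TAC saline mt-Nd2 stood at 4.11 ± 0.33, mt-Rnr2 at 3.91 ± 0.42 and mt-Cytb at 3.78 ± 0.21 per kilobase, and these 3 did not differ beyond their spread. In TAC NRG mt-Rnr2 ranked lower, at 2.36 ± 1.29 per kilobase, next to mt-Nd4 at 2.79 ± 0.33, and its SD there covered both groups of libraries described above. Since reads of this assay come from 3′ ends, their number need not scale with length, so the order depends on that correction. The low place of mt-Co1 is a read level of this assay, not a level of RNA.

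Both rRNAs were lower in TAC NRG than in sham saline, and mt-Rnr1 was also lower in TAC saline than in sham saline in all libraries. The rRNA of the small subunit, mt-Rnr1, took 0.751%, 0.851%, 0.864%, 0.450% and 0.394% of reads in TAC NRG 1 to 5, 1.03%, 1.04%, 1.02%, 0.719% and 0.829% in TAC saline 1 to 5, and 1.14%, 1.08%, 1.32%, 1.36% and 1.17% in sham saline 1 to 5. All 10 libraries after constriction lay below the lowest sham library, and TAC NRG overlapped TAC saline. The log2 fold change of TAC NRG over sham saline was -1.04 ± 0.18 (SE), and mt-Rnr1 fell (limma adjusted p = 0.000189). Without TAC NRG 4 and 5 the fall was -0.66 ± 0.13 and passed as well (limma adjusted p = 0.00141). For TAC saline over sham saline the value was -0.51 ± 0.18 and did not pass (limma adjusted p = 0.0613). This fit shares its estimate of spread with TAC NRG, and without TAC NRG 4 and 5 the same difference had an SE of 0.11 and passed (limma adjusted p = 0.00425). For TAC NRG over TAC saline the value was -0.53 ± 0.18 and did not pass (limma adjusted p = 0.135), and without TAC NRG 4 and 5 it was -0.15 ± 0.13.

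The rRNA of the large subunit, mt-Rnr2, gave more reads than mt-Rnr1 and carried most of the difference between the 2 outlying libraries and the rest. It took 5.08%, 5.88%, 4.57%, 1.67% and 1.43% of reads in TAC NRG 1 to 5, 5.99%, 7.14%, 6.18%, 5.30% and 6.29% in TAC saline 1 to 5, and 5.97%, 6.58%, 7.19%, 6.25% and 7.16% in sham saline 1 to 5. Every TAC NRG library lay below every sham library, by a narrow gap for TAC NRG 2, and TAC saline overlapped both other groups. The log2 fold change of TAC NRG over sham saline was -1.15 ± 0.27, and mt-Rnr2 fell (limma adjusted p = 0.00509). Without TAC NRG 4 and 5 the fall was -0.46 ± 0.15 (limma adjusted p = 0.0453). Over TAC saline the value was -0.93 ± 0.27 and did not pass (limma adjusted p = 0.0873), and without TAC NRG 4 and 5 it was -0.24 ± 0.15 (limma adjusted p = 0.662). That comparison turned on single libraries of the other kind too, since mt-Rnr2 passed without TAC NRG 1 or without TAC NRG 2, and mt-Rnr1 passed without TAC NRG 2. For TAC saline over sham saline mt-Rnr2 stood at -0.21 ± 0.27 (limma adjusted p = 0.704).

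**Figure D2:**
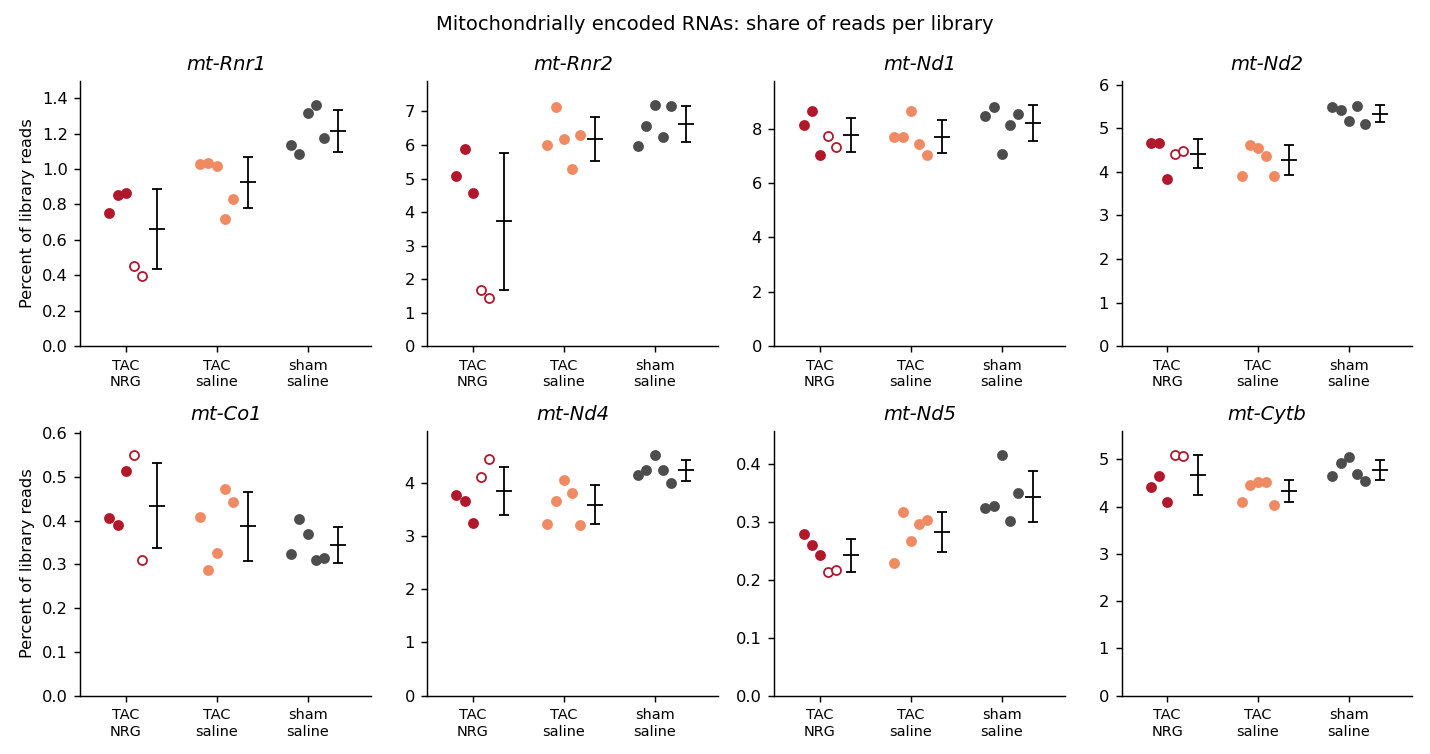
Each panel plots 1 mitochondrially encoded RNA as the percent of library reads in TAC NRG, TAC saline and sham saline, with 1 circle per library, open for TAC NRG 4 and 5, and bars for the mean and SD of 5 libraries. The open circles lie far below the others for mt-Rnr1 and mt-Rnr2 and at or near the top of their group for mt-Nd4 and mt-Cytb.

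Among the mRNAs of complex I, mt-Nd2 and mt-Nd5 were lower after constriction, with or without NRG1. The level of mt-Nd2 was 4.67%, 4.67%, 3.85%, 4.42% and 4.49% of reads in TAC NRG 1 to 5, 3.90%, 4.63%, 4.54%, 4.38% and 3.91% in TAC saline 1 to 5, and 5.49%, 5.43%, 5.16%, 5.51% and 5.10% in sham saline 1 to 5. The 10 libraries after constriction lay below all 5 sham libraries, and the 2 constricted groups overlapped. For TAC saline over sham saline mt-Nd2 fell by 0.44 ± 0.12 on the log2 scale (limma adjusted p = 0.0216). For TAC NRG over sham saline it fell by 0.37 ± 0.12 (limma adjusted p = 0.0386), and without TAC NRG 4 and 5 the value was -0.38 ± 0.14 and did not pass (limma adjusted p = 0.0697). Between TAC NRG and TAC saline the value was 0.07 ± 0.12, and 0.05 ± 0.14 without TAC NRG 4 and 5.

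A much less abundant mRNA, mt-Nd5, took 0.279%, 0.261%, 0.244%, 0.213% and 0.217% of reads in TAC NRG 1 to 5, 0.229%, 0.317%, 0.268%, 0.297% and 0.304% in TAC saline 1 to 5, and 0.324%, 0.328%, 0.416%, 0.302% and 0.351% in sham saline 1 to 5. All TAC NRG libraries lay below all sham libraries, while TAC saline overlapped both. For TAC NRG over sham saline mt-Nd5 fell by 0.59 ± 0.10 on the log2 scale (limma adjusted p = 0.000283), and without TAC NRG 4 and 5 it fell by 0.49 ± 0.11 (limma adjusted p = 0.00516). For TAC saline over sham saline it fell by 0.39 ± 0.10 (limma adjusted p = 0.0163). For TAC NRG over TAC saline the value was -0.20 ± 0.10 and did not pass (limma adjusted p = 0.357), and without TAC NRG 4 and 5 it was -0.10 ± 0.11 (limma adjusted p = 0.859). The gene overlaps mt-Nd6 on the opposite strand, and whether the counting used strand is not given in the sources used here; mt-Nd6 itself held 39 to 158 reads per library.

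The 2 other mRNAs of complex I did not pass in any of the 3 comparisons. The first gene after the rRNAs, mt-Nd1, ranged from 7.05% to 8.65% of reads in TAC NRG, 7.03% to 8.66% in TAC saline and 7.09% to 8.80% in sham saline. These ranges were nearly the same, and the log2 fold changes were -0.20 ± 0.13 for TAC saline over sham saline, 0.03 ± 0.13 for TAC NRG over TAC saline and -0.17 ± 0.13 for TAC NRG over sham saline. The values of mt-Nd1 in TAC NRG 1 to 3 alone were 0.05 ± 0.15 over TAC saline and -0.14 ± 0.15 over sham saline. For mt-Nd4 the ranges were 3.25% to 4.45% in TAC NRG, 3.21% to 4.05% in TAC saline and 3.99% to 4.53% in sham saline. The value of mt-Nd4 for TAC saline over sham saline, -0.35 ± 0.12, missed the threshold (limma adjusted p = 0.0719) but passed without TAC NRG 4 and 5 (limma adjusted p = 0.0455). On the deposited log2 scale, unlike that of shares, no TAC saline library of mt-Nd4 reached a sham library. In TAC NRG the 2 highest values of mt-Nd4, 4.11% and 4.45%, belonged to libraries 4 and 5. For TAC NRG mt-Nd4 stood at 0.11 ± 0.12 over TAC saline and -0.24 ± 0.12 over sham saline, and without these 2 libraries at 0.00 ± 0.13 and -0.35 ± 0.13 in the same order.

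The mRNA of complex III, mt-Cytb, ranged from 4.09% to 5.09% of reads in TAC NRG, 4.04% to 4.51% in TAC saline and 4.54% to 5.05% in sham saline. TAC saline lay below sham saline without overlap, by 0.25 ± 0.12 on the log2 scale, a difference that did not pass (limma adjusted p = 0.187). As for mt-Nd4, the 2 highest mt-Cytb values of TAC NRG, 5.09% and 5.08%, were those of libraries 4 and 5. For TAC NRG mt-Cytb stood at 0.12 ± 0.12 over TAC saline and -0.13 ± 0.12 over sham saline, and without these 2 libraries at 0.03 ± 0.13 and -0.22 ± 0.13 in the same order.

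The mRNA of complex IV, mt-Co1, was the member whose log2 fold changes were above 0 in both comparisons with sham saline, where those of the other 7 were below 0. It took 0.406%, 0.390%, 0.513%, 0.550% and 0.311% of reads in TAC NRG 1 to 5, 0.408%, 0.286%, 0.325%, 0.472% and 0.442% in TAC saline 1 to 5, and 0.323%, 0.404%, 0.368%, 0.309% and 0.314% in sham saline 1 to 5. The 3 groups overlapped, and the spread was widest after constriction. The log2 fold changes were 0.04 ± 0.13 for TAC saline over sham saline, 0.18 ± 0.13 for TAC NRG over TAC saline and 0.22 ± 0.13 for TAC NRG over sham saline, and none passed. The first of these was -0.03 without TAC saline 4, and the others were 0.20 ± 0.12 and 0.24 ± 0.12 without TAC NRG 4 and 5. Part of the mt-Co1 transcript recurs in the nuclear gene models Gm13340 and Gm29216, which hold 45.2% and 29.6% of its stretches of 31 bases, so reads could be split with them. Gm13340 held 5.87 to 17.7 CPM, against group means of 3432 to 4048 for mt-Co1. How shared reads were counted is not given, so these levels do not show how many reads of mt-Co1 were affected. Such sharing is not particular to mt-Co1. Gm28439 holds 62.8% of the stretches of mt-Nd4, Gm13339 13.5% of those of mt-Nd2 and Gm4076 12.8% of those of mt-Nd5. Of these gene models only Gm13339 had values here, at 1.61 to 4.56 CPM.

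**Figure D3:**
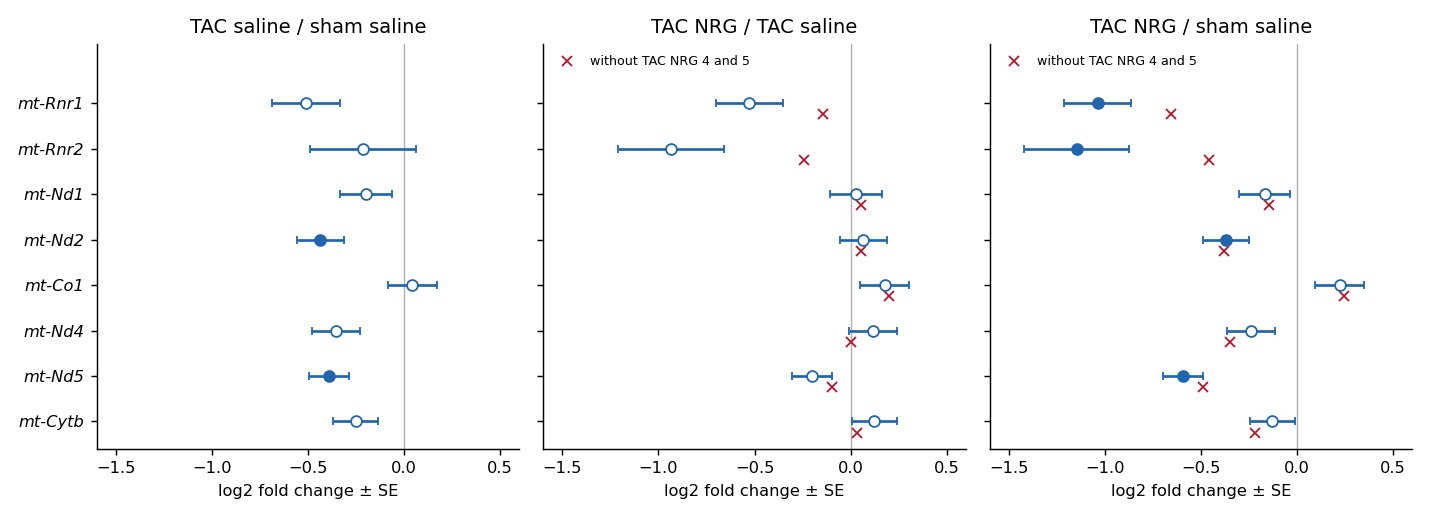
The log2 fold change of each member on the deposited scale is plotted with its SE for TAC saline over sham saline, TAC NRG over TAC saline and TAC NRG over sham saline. Filled circles passed an adjusted p of 0.05 (limma, over 11018 genes) and crosses give the value without TAC NRG 4 and 5; in both comparisons with TAC NRG the crosses of both rRNAs lie closer to 0 than the circles.

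Read against the whole table, 2 of 8 members fell in TAC saline against sham saline and 0 rose, where 10.7% of the 11018 tested genes passed, 4.24% lower and 6.47% higher. The median log2 fold change was -0.30 over the 8 members and -0.01 over all genes tested. Against sham saline, TAC NRG had 4 of 8 members lower, mt-Rnr1, mt-Rnr2, mt-Nd2 and mt-Nd5, where 16.1% of genes passed, 7.39% lower and 8.74% higher, and without TAC NRG 4 and 5 it had 3 of 8, mt-Rnr1, mt-Rnr2 and mt-Nd5, where 12.4% passed, 5.28% lower and 7.07% higher. Both comparisons share the sham libraries. Between TAC NRG and TAC saline 0 of 8 passed, where 1.3% of genes did, 0.626% lower and 0.672% higher, and without TAC NRG 4 and 5 again 0 of 8, where 0.354% did, 0.145% lower and 0.209% higher. At an unadjusted p under 0.05 in that comparison, limma placed 2 of 8 members, mt-Rnr1 and mt-Rnr2, where 15.3% of all genes were, and without TAC NRG 4 and 5 it placed 0 of 8, where 9.36% were. With all 15 libraries limma voom on recovered reads called 0 of 8. On the deposited scale, 4 of 8 members were lower without overlap in TAC saline against sham saline, mt-Rnr1, mt-Nd2, mt-Nd4 and mt-Cytb, where 3.68% of genes were. In TAC NRG against sham saline 4 of 8 were, both rRNAs with mt-Nd2 and mt-Nd5, where 5.45% of genes were, and in TAC NRG against TAC saline 0 of 8, where 1.25% of genes were. Without TAC NRG 4 and 5 these numbers were 6 of 8 against sham saline, where 9.2% of genes were, and 0 of 8 against TAC saline, where 2.62% were.

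Some of these calls depended on how libraries were scaled. With all reads of a library as the scale, the median of all genes moved by 0.110, to 0.105, for TAC saline over sham saline, and 84.9% of the genes that passed were higher, against 60.4% on the authors' scale. On that scale mt-Nd2 stood at -0.33 ± 0.08 and passed (limma adjusted p = 0.0115), and mt-Nd5 at -0.28 ± 0.10 and did not (limma adjusted p = 0.0596). On the authors' scale neither passed without TAC saline 1 (limma adjusted p = 0.0763 and 0.0711).

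The rRNAs were set against the mRNAs within each library, since such a ratio does not depend on scaling. The share of the 8 members' reads that came from rRNA was 21.2%, 23.2%, 22.2%, 8.76% and 7.70% in TAC NRG 1 to 5, 26.4%, 27.9%, 24.4%, 22.4% and 27.3% in TAC saline 1 to 5, and 23.3%, 24.1%, 27.3%, 24.7% and 26.7% in sham saline 1 to 5. TAC saline and sham saline overlapped throughout, and every TAC NRG library but number 2 lay below all libraries of both other groups. The means were 16.6% ± 7.70 in TAC NRG, 25.7% ± 2.30 in TAC saline and 25.2% ± 1.74 in sham saline (SD, n = 5 each). In TAC NRG 1 to 3 alone the mean was 22.2% ± 1.01 (SD, n = 3), and the mRNA share of all reads was 21.0% ± 1.75. The rRNAs also differed from each other within the outlying libraries: mt-Rnr2 gave 3.71 and 3.63 reads per read of mt-Rnr1 in TAC NRG 4 and 5, against 5.29 to 6.91 in TAC NRG 1 to 3, 5.83 to 7.59 in TAC saline and 4.59 to 6.10 in sham saline. In these 2 libraries mt-Rnr2 was therefore further below the others than mt-Rnr1 was.

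**Figure D4:**
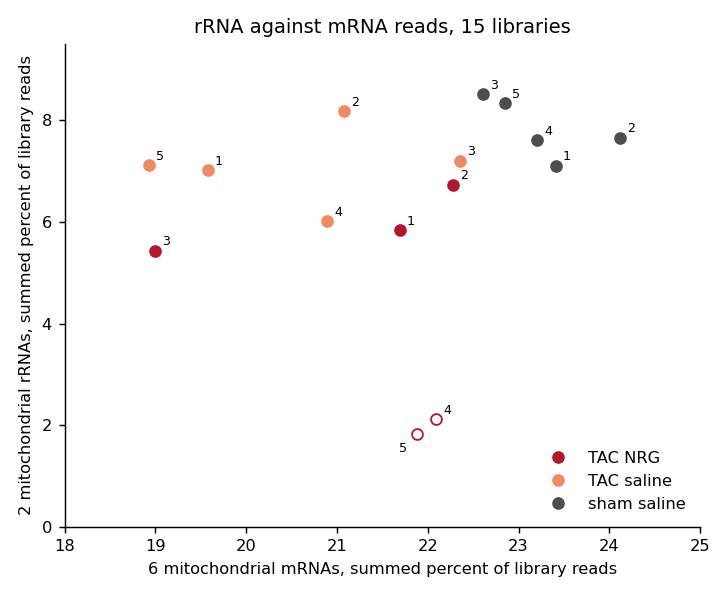
Each circle is 1 library, with the summed percent of reads of the 6 mRNAs on the x axis (which starts at 18) and that of the 2 rRNAs on the y axis; numbers are library numbers within a group and open circles are TAC NRG 4 and 5. The open circles lie at 1.83% and 2.12% rRNA with mRNA shares of 21.9% and 22.1%, inside the mRNA range of the other constricted libraries.

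Ratios between neighbouring members along the genome were tested in the same way, 7 pairs in 3 comparisons, with exact two-sided permutation tests adjusted over the 21. Of the 21, 0 passed and 9 had an unadjusted p under 0.05. An exact permutation test of 5 libraries against 5 cannot go below p = 0.00794. Ratios at that floor had an adjusted p of 0.0556 here, so 0 passing does not show that the ratios were alike. The step from the last rRNA to the first mRNA, mt-Rnr2 reads per mt-Nd1 read, was 0.624, 0.680, 0.647, 0.216 and 0.195 in TAC NRG 1 to 5, 0.776, 0.925, 0.714, 0.713 and 0.894 in TAC saline 1 to 5, and 0.704, 0.748, 1.01, 0.768 and 0.838 in sham saline 1 to 5. All 5 TAC NRG libraries lay below all 10 others, while TAC saline and sham saline overlapped. The log2 ratio was lower by 0.96 ± 0.42 (SE) in TAC NRG than in TAC saline and by 0.98 ± 0.42 than in sham saline, each at the smallest exact permutation p of 0.00794 (adjusted p = 0.0556). Without TAC NRG 4 and 5 the differences were -0.30 (exact permutation p = 0.0357, adjusted p = 0.119) and -0.31 (exact permutation p = 0.0536, adjusted p = 0.125). With 3 libraries against 5 the exact permutation p cannot go below 0.0179, so these p-values are not comparable with those of 5 against 5.

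Between mRNAs, the ratio of mt-Nd5 to mt-Cytb was lower in all 5 TAC NRG libraries than in all 5 sham libraries, by 0.47 ± 0.14 on the log2 scale (exact permutation p = 0.00794, adjusted p = 0.0556). Its log2 values were -3.99, -4.16, -4.07, -4.58 and -4.55 in TAC NRG 1 to 5 and -3.84, -3.91, -3.60, -3.96 and -3.69 in sham saline 1 to 5. TAC NRG 4 and 5 were again the lowest, and without them the difference was -0.27 (exact permutation p = 0.0357, adjusted p = 0.119). The ratio of mt-Nd1 to mt-Nd2 ran the other way, higher by 0.24 ± 0.07 in TAC saline than in sham saline and by 0.20 ± 0.06 in TAC NRG than in sham saline (exact permutation p = 0.0159 each, adjusted p = 0.0667). The second difference, without TAC NRG 4 and 5, was 0.24 (exact permutation p = 0.0357, adjusted p = 0.119). In this ratio TAC NRG 4 and 5, at 0.81 and 0.71, lay close to the other 3 libraries of their group, at 0.80 to 0.89. In the other 16 tests the adjusted exact permutation p was 0.0833 to 0.929.

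**Figure D5:**
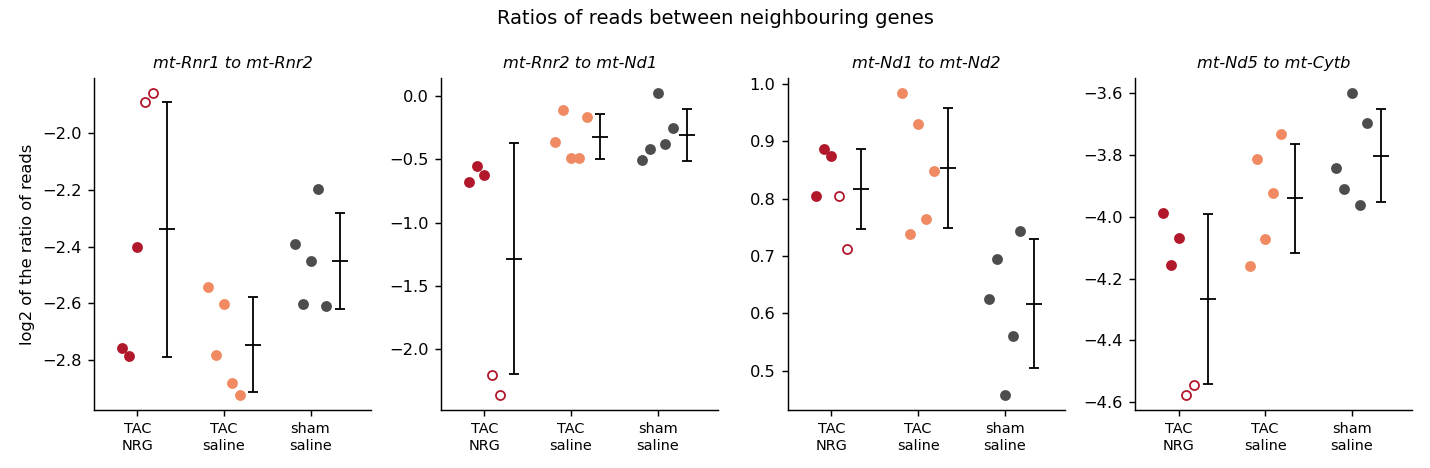
The log2 ratio of reads is plotted for 4 pairs of neighbouring genes in each library by group, with open circles for TAC NRG 4 and 5 and bars for the mean and SD of 5 libraries. The open circles lie apart for mt-Rnr2 to mt-Nd1, at -2.21 and -2.36, but not for mt-Nd1 to mt-Nd2.

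Likeness between genes was described by Pearson's r of the deposited log2 values over the 15 libraries, which share scaling, depth and group differences. The rRNAs were most like each other among the members, at 0.91, and at 0.79 over the 13 libraries without TAC NRG 4 and 5. Over 15 libraries mt-Rnr2 stood at -0.02 to mt-Nd4 and -0.10 to mt-Cytb, and over the 13 at 0.70 and 0.72. The correlations of mt-Rnr2 with mt-Nd4 and mt-Cytb therefore rested on whether the 2 libraries were included. With mt-Nd5, mt-Rnr2 stood at 0.73 over 15 libraries and 0.78 over 13, the latter close to the r between the rRNAs. For mt-Rnr1 and mt-Nd5 these values were 0.78 and 0.67. Against each of the other 7 members, mt-Co1 had a negative r, from -0.42 to -0.24 over 15 libraries and from -0.69 to -0.39 over 13. Outside the mitochondrial genome the genes most like mt-Rnr1 were Mmut (0.96), a mitochondrial enzyme that converts methylmalonyl-CoA, Trabd2b (0.94) and Kdm5a (0.94), a histone demethylase. Over the 13 libraries their r was 0.93, 0.88 and 0.83. Those most like mt-Rnr2 were Gm43185 (0.98), Zbtb20 (0.97), a zinc finger repressor of transcription, and Strn3 (0.97), a striatin, and over the 13 libraries their r was 0.76, 0.83 and 0.68. Those most like mt-Co1 were Ppm1m (0.87), a protein phosphatase, Snx33 (0.82), a sorting nexin, and Cstb (0.81), the protease inhibitor cystatin B.

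The nuclear partners of these RNAs were counted in the same fit. Of 36 tested nuclear genes of complex I, the partner of the mt-Nd proteins, 11 fell and 0 rose in TAC saline against sham saline, where 4.24% of all genes fell, with a median log2 fold change of -0.24. In complex IV, the partner of mt-Co1, 7 of 14 fell, with a median of -0.29, among them Cox7a1, a subunit of heart and skeletal muscle, which fell by 0.51 ± 0.12 (limma adjusted p = 0.00623). In complex V 4 of 15 fell and in complex II, which has no mitochondrially encoded subunit, 2 of 4, Sdha and Sdhb. In complex III, the partner of mt-Cytb, 0 of 9 passed and all 9 values were below 0, with a median of -0.19. In TAC NRG against sham saline 4 of 36, 1 of 4, 1 of 9, 2 of 14 and 1 of 15 fell for complexes I, II, III, IV and V, and 0 rose, where 7.39% of all genes fell. More of them fell when TAC NRG 4 and 5 were left out, 6 of 36, 2 of 4, 3 of 9, 5 of 14 and 2 of 15, where 5.28% of all genes did. In TAC NRG against TAC saline 0 of these 78 passed with limma, where 1.3% of all genes did, and 11 had an unadjusted p under 0.05, where 15.3% did. The medians were 0.12, 0.00, 0.13, 0.15 and 0.11 in the same order of complexes. With TAC NRG 4 and 5 left out, 0 of 78 had an unadjusted p under 0.05, where 9.36% of all genes had, and the medians were 0.03, -0.02, 0.00, 0.05 and 0.04. Both comparisons with a fall share the sham libraries, and with all reads as the scale the whole table moves as given above.

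Of 147 tested nuclear genes for the making and use of mitochondrial RNA, 9 passed with limma in TAC saline against sham saline, 0 in TAC NRG against TAC saline and 13 in TAC NRG against sham saline, where 10.7%, 1.3% and 16.1% of all genes did. An unadjusted p under 0.05 was held by 30, 17 and 30 of them in the same comparisons, where 24.2%, 15.3% and 28.9% of all genes held one. Counted in either direction, the shares of this set were thus below those of all genes at both thresholds. The 9 in TAC saline against sham saline were all lower, where 4.24% of all genes were lower. Of these 9, 5 were among the 28 small subunit proteins of the mitochondrial ribosome described below. Of the 13 in TAC NRG against sham saline all but Mrpl52 and Mrps23 were lower, a share near the 7.39% of all genes. In TAC NRG 1 to 3 alone, 0 passed against TAC saline, where 0.354% of all genes did. Against sham saline 7 passed, all lower, where 12.4% of all genes passed and 5.28% were lower. An unadjusted p under 0.05 was held by 7 and 29 in the same order, where 9.36% and 25.8% of all genes held one. Of 6 tested genes of mitochondrial transcription 0 passed in TAC saline against sham saline, and in TAC NRG against sham saline Mterf2, a protein of the family that binds mitochondrial DNA, fell by 0.58 ± 0.15 (limma adjusted p = 0.00696), and by 0.69 ± 0.15 without TAC NRG 4 and 5 (limma adjusted p = 0.00369). Of 11 genes of replication and nucleotide supply, Rrm2b, a ribonucleotide reductase subunit, fell in TAC saline and in TAC NRG against sham saline, by 0.61 ± 0.19 and 0.67 ± 0.19 (limma adjusted p = 0.0442 and 0.0197), and Mgme1 and Dguok fell in TAC NRG. Of these 11, 0 passed in TAC NRG against sham saline when TAC NRG 4 and 5 were left out, and Rrm2b stood at -0.58 ± 0.22 (limma adjusted p = 0.0910). Of 14 genes of RNA processing, Fastk fell in both, and Fastkd1 in TAC NRG. Fastk also passed in TAC NRG without libraries 4 and 5 (limma adjusted p = 0.0134) and Fastkd1 did not (limma adjusted p = 0.197). Of 7 genes of RNA stability, polyadenylation and decay, Lrpprc, which protects mitochondrial mRNAs and aids their polyadenylation, fell by 0.36 ± 0.11 in TAC saline against sham saline (limma adjusted p = 0.0286), with 35.4 ± 4.25 CPM in TAC saline and 45.3 ± 3.20 in sham saline. In TAC NRG against sham saline 0 of these 7 passed, with or without TAC NRG 4 and 5.

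Genes for proteins that act on the rRNAs or sit with them in the ribosome were read against the same shares of all genes, 4.24% lower in TAC saline and 7.39% lower in TAC NRG, each against sham saline. Of 21 genes of rRNA modification and ribosome assembly, 0 passed in TAC saline against sham saline, and in TAC NRG against sham saline Ddx28, a helicase of large subunit assembly, fell by 0.47 ± 0.16 (limma adjusted p = 0.0386), while without TAC NRG 4 and 5 its value was -0.43 ± 0.18 and did not pass (limma adjusted p = 0.117). Of 11 translation factors 0 passed in any comparison, and again 0 in both comparisons of TAC NRG without libraries 4 and 5. Among proteins of the large ribosomal subunit, the partners of mt-Rnr2, 1 of 49 fell in TAC saline against sham saline, Mrpl14, and in TAC NRG against sham saline Mrpl28 and Mrpl3 fell and Mrpl52 rose. Mrpl28 and Mrpl3 passed without TAC NRG 4 and 5 as well, and Mrpl52 did not (limma adjusted p = 0.299). Among those of the small subunit, the partners of mt-Rnr1, 5 of 28 fell in TAC saline against sham saline, a larger share than that of all genes, among them Mrps28 by 0.37 ± 0.09 (limma adjusted p = 0.00709), and in TAC NRG against sham saline Mrps28 and Mrps35 fell and Mrps23 rose. When TAC NRG 4 and 5 were left out, 3 of 28 fell, Mrps21, Mrps24 and Mrps35, while Mrps28 and Mrps23 did not pass (limma adjusted p = 0.0505 and 0.160). The median for TAC NRG over TAC saline was 0.09 over large subunit proteins and 0.10 over small subunit proteins, beside -0.53 for mt-Rnr1 and -0.93 for mt-Rnr2. These medians without TAC NRG 4 and 5 were 0.06 and 0.04, beside -0.15 and -0.24.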

How the data were processed

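Total RNA of frozen ventricle was read by BRB-seq, per the labels' protocols, and assigned on GRCm39, per the submitters' processing notes; which aligner and counter made them is not given in the sources used here. Values deposited by the authors, in log2, equal log2 of reads plus 0.5 on a factor per library, as read from their spacing, and whole reads were recovered by undoing it (98.9% to 99.5% of values per library within 0.05 of a whole number). Shares are percent of all recovered reads. CPM are the deposited values without the log, over 1000, so they keep the authors' scaling.

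The test was limma 3.58.1 (R 4.3.3) with trended spread on those values in the 15 libraries together, two-sided, with Benjamini-Hochberg adjustment over 11018 genes (at least 2.95 reads per M in 5 libraries and 15 reads in all) and a threshold of 0.05, and was tested on simulated data. A fold change understates that of low genes. "Rose" and "fell" mean past the threshold. The labels give 1 batch.

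Members and gene lists were chosen with earlier results of these data known. Members are named in full; of each list up to 4 genes past the threshold with the smallest p (1 that this rule selects is not reported here); for mt-Rnr1, mt-Rnr2 and mt-Co1 the 3 genes with the highest r. The plan held 10 members and 9 neighbour pairs; 8 and 7 could be used. Markers were Myh6, Tnnt2, Tnni3, Actc1, Ryr2, Pln, Atp2a2 and Myl2 for cardiomyocytes, and Col1a1, Col1a2, Col3a1, Dcn, Lum, Pdgfra and Postn for fibroblasts. Transcripts and lengths came from GENCODE on GRCm38, used by name only. Alternatives concerned scaling, filter, spread, groups fitted, replicate block and single libraries, and after the data were seen voom, thinned reads and leaving out TAC NRG 4 and 5. Tables used numpy 2.4.6, pandas 2.3.3, scipy 1.17.1 and Python 3.11.15, and figures matplotlib 3.10.9.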

Additional observations from a re-analysis of the deposited data

How the results depend on the processing

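Across 19 alternatives, mt-Rnr1, mt-Rnr2 and mt-Nd5 stayed past the threshold in TAC NRG against sham saline in all 19 (log2 fold changes of -1.16 to -0.66, -1.39 to -0.46 and -0.65 to -0.49), and mt-Nd2 in 7. In TAC saline against sham saline mt-Nd5 passed in 15 and mt-Nd2 in 13, with limma adjusted p of 0.00885 to 0.0711 and 0.000487 to 0.107; mt-Nd4 passed in 6 and mt-Rnr1 in 4.

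Genes passing in TAC saline against sham saline (1180) numbered 636 to 1495 when 1 library was left out, with 636 without TAC saline 5 and 708 without TAC saline 1. In TAC NRG against TAC saline (143) they numbered 77 with only these groups fitted, 92 with voom, 84 with thinned reads, 39 without TAC NRG 4 and 5, and 58 to 229 with 1 library left out (TAC NRG 4 and TAC NRG 2 at the ends, with TAC saline 1, 4 and 5 and TAC NRG 5 between them at 77 to 93). In TAC NRG against sham saline (1777) they numbered 1338 to 1854. With all reads as the scale 75.9% of the genes passing in TAC NRG against sham saline were higher, against 54.2%; with the reads of other genes as the scale 32.6% were higher in TAC NRG against TAC saline, against 51.7%.

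With 1 library left out, the log2 ratio of mt-Rnr2 to mt-Nd1 ranged from -0.0671 to 0.0676 for TAC saline over sham saline. It ranged from -1.15 to -0.70 for TAC NRG over TAC saline and from -1.16 to -0.71 for TAC NRG over sham saline. With 1 TAC saline library left out, TAC NRG over TAC saline had exact permutation adjusted p of 0.133 to 0.2. With 1 sham saline library left out, TAC NRG over sham saline had exact permutation adjusted p of 0.167 to 0.190. Without TAC NRG 5 both of these ratios passed (exact permutation adjusted p = 0.0333 each). For TAC NRG over sham saline mt-Nd2 to mt-Co1, mt-Co1 to mt-Nd4 and mt-Nd5 to mt-Cytb then passed too (exact permutation adjusted p = 0.0333 each). So did mt-Nd1 to mt-Nd2 (exact permutation adjusted p = 0.0476). Other log2 ratios that changed sign were mt-Co1 to mt-Nd4 (-0.0628 to 0.231) and mt-Nd2 to mt-Co1 (-0.231 to 0.0200) for TAC NRG over TAC saline, mt-Nd4 to mt-Nd5 for TAC saline over sham saline (-0.0233 to 0.106) and mt-Rnr1 to mt-Rnr2 for TAC NRG over sham saline (-0.0097 to 0.223). The rRNA percent of member reads, TAC saline minus sham saline, ranged from -0.119 to 1.28. Log2 fold changes with a change of sign were those of mt-Co1 for TAC saline over sham saline (-0.0263 to 0.133) and mt-Nd1 for TAC NRG over TAC saline (-0.0254 to 0.0968). Shares with one were mt-Nd1, TAC NRG minus TAC saline (-0.145 to 0.308), and mt-Cytb, TAC NRG minus sham saline (-0.210 to 0.0378). None of the values with a change of sign had passed a test.

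Without TAC NRG 4 and 5 the rRNA percent, TAC NRG minus sham saline, was -3.02, and signs changed for the log2 ratios mt-Nd1 to mt-Nd2, TAC NRG over TAC saline (0.00205), and mt-Rnr1 to mt-Rnr2, TAC NRG over sham saline (-0.199), and for the mt-Nd4 share, TAC NRG minus TAC saline (-0.0308). Scaled by the reads of other genes, mt-Nd1 stood at -0.0242 for TAC NRG over TAC saline. The cause of these changes was not tested.

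Same-numbered libraries did not deviate together (correlations of -0.246 to 0.080). With the replicate block 1049, 111 and 1645 genes passed in TAC saline against sham saline, TAC NRG against TAC saline and TAC NRG against sham saline, mt-Nd2 passed in none (limma adjusted p of 0.0648 and 0.0942 against sham saline), and mt-Rnr1 passed in TAC saline against sham saline (limma adjusted p = 0.0396). The exact sign-flip test over 5 pairs cannot go below 0.0625. The planned count tests were not run, because the files hold scaled log2 values.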

Other observations

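Beside the 8 members, 7 further rows of the mitochondrial genome were present, mt-Nd3, mt-Nd6 and 5 tRNAs, while the 8 members held at least 99.98% of mitochondrial reads. The tRNA mt-Tp, singled out after its values were seen, had 58, 65, 61, 6 and 3 reads in TAC NRG 1 to 5, 45, 4, 46, 11 and 46 in TAC saline 1 to 5, and 6, 54, 3, 2 and 2 in sham saline 1 to 5. Its counts fell into a high and a low set in each of the 3 groups. The mRNA mt-Nd3 had 1 to 16 reads per library. Of the 7 further rows 3 passed the filter on low values and were among the genes tested. With so few reads their results are not described here. For the 8 members, libraries of a group differed by more than counting error, and the part of library depth in their values was not tested.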
